A study of Mus musculus with 12 samples.

Results

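Ccl3, Ccl4, Ccl5, Ccl6 and Ccl9 are 5 of the 48709 genes in an RNA sequencing table of cells labelled as mouse peritoneal macrophages. They were chosen by name, as CC chemokine genes that lie together on chromosome 11, and all 5 passed the filter on low counts. The cells came from wild-type mice (WT) or from mice that lack Usp5, a deubiquitinase gene, in myeloid cells (MKO). They were taken at 0 h or after 3 h of lipopolysaccharide (LPS), the ligand of Toll-like receptor 4 from the outer membrane of Gram-negative bacteria, which gave 4 groups of 3 libraries: WT and MKO at 0 h, and WT and MKO at 3 h. The labels give neither the Cre driver of the knockout nor the age, sex or number of the mice, and they name LPS as the treatment of every sample, the 0 h samples included, while the series text speaks of mock cells. Nor do they say that the libraries of a group are from different animals. The p-values given here reflect the spread between libraries, and that spread may be technical.

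CC chemokines are small secreted proteins that draw leukocytes along a gradient through receptors coupled to G proteins, while proteoglycans hold them on cell surfaces. Macrophages are a main source of them. Ccl3 and Ccl4 encode the macrophage inflammatory proteins MIP-1alpha and MIP-1beta and are classical early targets of NF-kB after LPS, with messenger RNAs of short life. CCL3 and CCL5 bind CCR1 among other receptors, and CCL5 (RANTES), which attracts T cells and monocytes, also binds CCR3. Ccl5 is known as a target of interferon regulatory factors as well as of NF-kB. Ccl6 and Ccl9 encode rodent chemokines that signal through CCR1 and are made by resting myeloid cells.

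The 5 genes spanned 138.9 kb of chromosome 11 (mm10). In order of position they were Ccl5 (ENSMUSG00000035042, 83525778 to 83530518), Ccl9 (ENSMUSG00000019122, 83572919 to 83578636), Ccl6 (ENSMUSG00000018927, 83587882 to 83593087), Ccl3 (ENSMUSG00000000982, 83647844 to 83649355) and Ccl4 (ENSMUSG00000018930, 83662584 to 83664683). Ccl4 was on the plus strand and the other 4 genes on the minus strand. The gaps between neighbours were 42.4 kb from Ccl5 to Ccl9, 9.25 kb from Ccl9 to Ccl6, 54.8 kb from Ccl6 to Ccl3 and 13.2 kb from Ccl3 to Ccl4. Ccl3, Ccl4 and Ccl5 had 3 exons each in GENCODE M21, and Ccl6 and Ccl9 had 4. Ccl6 overlapped E230016K23Rik on the opposite strand, and since the sources used here do not say whether reads were counted by strand, reads of both cannot be told apart there. E230016K23Rik had 13 to 46 counts per library, against 18143 or more for Ccl6.

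The sequences just before the genes' starts are shown because the genes lie side by side and responded to LPS by very different amounts, as described further on. The 250 bases before the start were in the RefSeq promoter table (GRCm38.p6) for Ccl3 (chr11:83649379-83649628), Ccl6 (chr11:83593088-83593337) and Ccl9 (chr11:83578637-83578886), all on the minus strand. For Ccl3 the RefSeq start lay upstream of the gene's start given above (83649355), so the bases in between were not searched. The windows read as follows, with matches to the motifs searched in capitals.
Ccl3: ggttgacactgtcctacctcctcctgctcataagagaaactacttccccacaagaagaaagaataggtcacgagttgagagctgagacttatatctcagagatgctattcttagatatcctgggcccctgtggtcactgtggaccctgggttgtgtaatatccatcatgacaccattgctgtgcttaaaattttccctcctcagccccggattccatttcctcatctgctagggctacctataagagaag
Ccl6: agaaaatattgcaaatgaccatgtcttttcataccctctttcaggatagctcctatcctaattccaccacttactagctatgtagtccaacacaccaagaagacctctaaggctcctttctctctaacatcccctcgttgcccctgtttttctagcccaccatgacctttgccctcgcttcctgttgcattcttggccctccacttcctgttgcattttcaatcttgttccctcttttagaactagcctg
Ccl9: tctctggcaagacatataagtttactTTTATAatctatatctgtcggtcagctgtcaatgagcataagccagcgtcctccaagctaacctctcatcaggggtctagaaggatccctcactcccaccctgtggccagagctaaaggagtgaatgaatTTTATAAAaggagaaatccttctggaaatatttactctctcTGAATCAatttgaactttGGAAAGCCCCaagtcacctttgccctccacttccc

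Both strands were searched for kappaB, the NF-kB site (GGGNNNNNCC), for the AP-1 site (TGANTCA), for the TATA box (TATAAA) and for the interferon-stimulated response element (GAAANNGAAA). The Ccl9 window held a kappaB match on the reverse strand from 35 to 26 bases before the start (GGAAAGCCCC), an AP-1 match from 53 to 47 bases before it (TGAATCA) and 3 TATA box matches, of which a pair overlapped on opposite strands. The Ccl3 and Ccl6 windows held no match to these letters. Of 32841 RefSeq windows of the same length, 45.8% held a kappaB match, 6.8% an AP-1 match, 12.4% a TATA box match and 3.0% a match to the interferon-stimulated response element. A match is a description of the letters and not a binding site. The Ccl6 and Ccl9 windows shared a run of 13 bases, gccctccacttcc, from 55 to 43 bases before the start of Ccl6 and from 14 to 2 bases before that of Ccl9, while the longest run that Ccl3 shared with either was 8 bases.

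The 3′ untranslated regions (UTRs) are described for the pentamer ATTTA, the core of the AU-rich elements that mark short-lived cytokine messages for decay, again because the size of the LPS response set the genes apart. In the longest 3′ UTR per gene, Ccl3 held 5 ATTTA in 409 bases and Ccl4 held 2 in 302 bases. These densities were 12.2 and 6.6 per kb, reached or passed by 0.4% and 2.9% of the 11429 tested genes with an annotated 3′ UTR, whose median was 1.32 per kb. Ccl6 held 4 in 943 bases (4.2 per kb, reached by 9.0% of genes), Ccl9 held 5 in 2465 bases (2.0 per kb, reached by 34.7%), and Ccl5 held none in 199 bases. By number and not density, at least as many ATTTA were held by 22.9% of genes for Ccl3 and Ccl9. For Ccl6 this was 30.1% and for Ccl4 51.4%. A link between ATTTA and the LPS response was not tested. A stretch of 30 bases from each 3′ UTR with a match follows, with ATTTA in capitals.
Ccl3: gactcttcacttgaaattttATTTAATTTA
Ccl4: ttcagatttcctgcccctcttcttaATTTA
Ccl6: ccttgtttttatagatATTTAaagcATTTA
Ccl9: tgagtccATTTAtacagtggatctcATTTA

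Total counts per library ran from 14762709 to 20778862, and the 5 genes had 623 to 57181 counts per library, so that counting error was at most 4.01%. Levels are given as CPM, counts corrected for sequencing depth with TMM factors, for a gene across groups, and as the deposited TPM, which corrects for gene length, between genes. A gene was called in a comparison at an adjusted p under 0.05 in edgeR's quasi-likelihood test, with p-values adjusted over the 12455 genes tested, and SE is the standard error of a log2 value. Usp5, the targeted gene, had mean levels of 111 and 108 CPM in the 2 WT groups against 29.7 and 27.6 CPM in the 2 MKO groups. In both 0 h groups replicate 3 stood apart: their counts differed from their group mates by a chi-square per degree of freedom of 14.8 to 26.3, against 1.93 and 2.62 between replicates 1 and 2 of these groups and 1.92 to 4.18 within the 3 h groups. Results that rest on those libraries are given with and without them. Without both of them more genes were called: 5841 for LPS in WT, 2609 for LPS in MKO and 6034 for genotype at 0 h. With all libraries these were 4042, 1971 and 4099. For the interaction, described further on, 2535 genes were called without them and 847 with all libraries. Scaling also matters here: without TMM factors the median log2 change of all genes was -0.23 for LPS in WT, -0.10 for LPS in MKO, 0.12 for genotype at 0 h and 0.24 for genotype at 3 h, whereas with them it lay between -0.02 and 0.

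Of 9 macrophage markers 8 were matched in the table, and their summed level was 9391 to 10140 CPM in WT 0 h, 10830 to 11110 in WT 3 h, 7238 to 7823 in MKO 0 h and 7883 to 8187 in MKO 3 h. Adgre1, an adhesion receptor gene, gave the highest level. Lyz2, another macrophage marker, was at 13.0 to 39.9 CPM by group mean. Gata6, Timd4, Vsig4 and Cxcl13, 4 of 7 markers of large peritoneal macrophages, the resident phagocytes of the abdomen, stayed under 0.1 CPM in every library. Ccr2 and Ly6c2, markers of small peritoneal macrophages and monocytes, had means of 216 and 76.0 CPM in WT 0 h and of 172.5 and 87.2 CPM in MKO 0 h. Icam2, Selp and Fcna, the others on the list of large peritoneal macrophages, had group means of 14.3 to 15.7, 2.45 to 5.17 and 1.21 to 1.73 CPM. The other genes on the list with Ccr2 and Ly6c2 had group means of at most 3.47 CPM. The 4 silent markers thus go against resident large peritoneal macrophages, but the members of neither list all point the same way. The cells are called macrophages as the labels have it. T and NK cells and mast cells are other known sources of Ccl3, Ccl4 and Ccl5. The 11 T and NK cell markers summed to 7.86 to 13.3 CPM, mostly Klrk1, with group means of at most 0.115 CPM for Cd3e and 0.128 for Cd3d. Of 7 mast cell markers Mcpt4, Tpsb2 and Cma1 were at 0 in all libraries. The 7 summed to 3.99 to 4.14 CPM in WT 0 h and 8.40 to 10.6 in WT 3 h, and to 3.99 to 5.78 in MKO 0 h and 5.70 to 6.44 in MKO 3 h, so that the sum was higher after LPS in WT, as Ccl3 and Ccl4 were. Gata2, which went from 0.812 to 5.08 CPM in WT and from 1.12 to 1.99 in MKO by group mean, had the highest level of the 7 after LPS in WT. Summed neutrophil markers were at 160.9 to 312.5 CPM in overlapping ranges, B cell markers were higher in MKO (24.8 to 39.4 CPM) than in WT (15.7 to 20.4), and so were eosinophil markers (16.3 to 21.1 against 4.54 to 8.05). Siglecf, the highest of the eosinophil markers, had means of 10.8 and 12.25 CPM in MKO at 0 h and 3 h and of 1.69 and 2.25 in WT. Without Siglecf and Ighm, the highest of each list, the eosinophil and B cell ranges of the genotypes overlapped at 3 h but not at 0 h. The part of these cell types in the results was not tested. In bulk RNA, fewer cells that express a gene and less RNA per cell cannot be told apart.

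Before LPS, WT macrophages carried mainly Ccl5, Ccl6 and Ccl9. By deposited TPM, Ccl5 was at 3444, 3726 and 2993 in the WT 0 h libraries, Ccl6 at 2076, 2108 and 2068, and Ccl9 at 1875, 1913 and 1950. Ccl3 was at 202.0, 221 and 206 TPM, and Ccl4 at 165, 186 and 191. All neighbours in this order were apart in every library, and Ccl5 ranked 24 to 27 among all genes of a library while Ccl3 ranked 659 to 742 and Ccl4 791 to 903. After LPS the order was turned: Ccl3 stood at 5381, 5282 and 5306 TPM, ahead of Ccl4 at 4428, 4529 and 4605, Ccl5 at 3567 to 3746, Ccl9 at 2532 to 2615 and Ccl6 at 2036 to 2085. No ranges of these genes overlapped in WT 3 h. Ccl3 then ranked 14 to 17 in a library and Ccl4 ranked 20 in all 3.

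**Figure D1:**
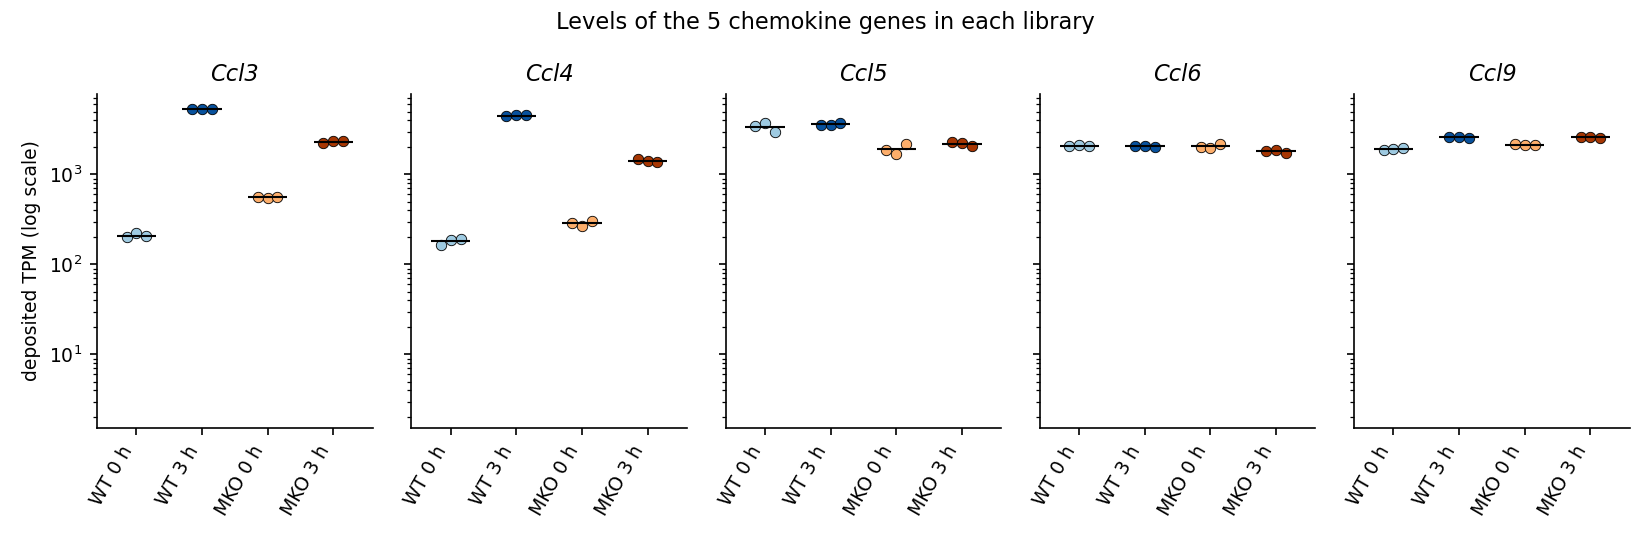
Deposited TPM (log scale) of each gene by group, with 1 point per library and a bar at the group mean (n = 3). Ccl3 and Ccl4 run from 165 to 5381 TPM, while Ccl5, Ccl6 and Ccl9 stay between 1697 and 3746.

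In MKO macrophages the order differed at both times. At 0 h Ccl9 (2121 to 2166 TPM), Ccl6 (1965 to 2194) and Ccl5 (1697 to 2158) overlapped, and Ccl3 (552 to 559) and Ccl4 (268 to 303) lay below. At 3 h Ccl9 led with 2567 to 2616 TPM. Ccl3 (2221 to 2347) and Ccl5 (2086 to 2267) overlapped, and Ccl6 (1750 to 1861) and Ccl4 (1373 to 1473) were apart from them and from each other.

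As shares of the summed TPM of the 5 genes, Ccl3 and Ccl4 together made up little before LPS and more than any other pair in WT after it. In WT 0 h Ccl3 held 2.70% ± 0.0881 (SD, n = 3) of the sum and Ccl4 2.33% ± 0.229, against 29.4% ± 0.348 and 24.9% ± 0.407 in WT 3 h. In MKO the shares were 8.0% ± 0.376 and 4.14% ± 0.0801 at 0 h and 22.3% ± 0.895 and 13.7% ± 0.406 at 3 h. Ccl5 held the leading share in WT 0 h, 43.5% ± 2.75, against 20.0% ± 0.462 in WT 3 h, and Ccl9 held 25.2% ± 0.185 in MKO 3 h. The sum itself was 7775 ± 374 TPM in WT 0 h, 6952 ± 374 in MKO 0 h, 18120 ± 92.9 in WT 3 h and 10320 ± 174 in MKO 3 h. The ranges of the sum did not overlap at either time, but were close at 0 h, with 7346 TPM in the highest MKO and 7407 in the lowest WT library, and far apart at 3 h, with 10450 against 18060. The separation at 0 h depended on the unit: in summed CPM, which is scaled with TMM factors, the ranges overlapped at 0 h. That overlap was between the replicate 3 libraries of the 0 h groups, which stand apart. Without both of them the ranges did not overlap in either unit. The difference in the sum was not tested.

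**Figure D2:**
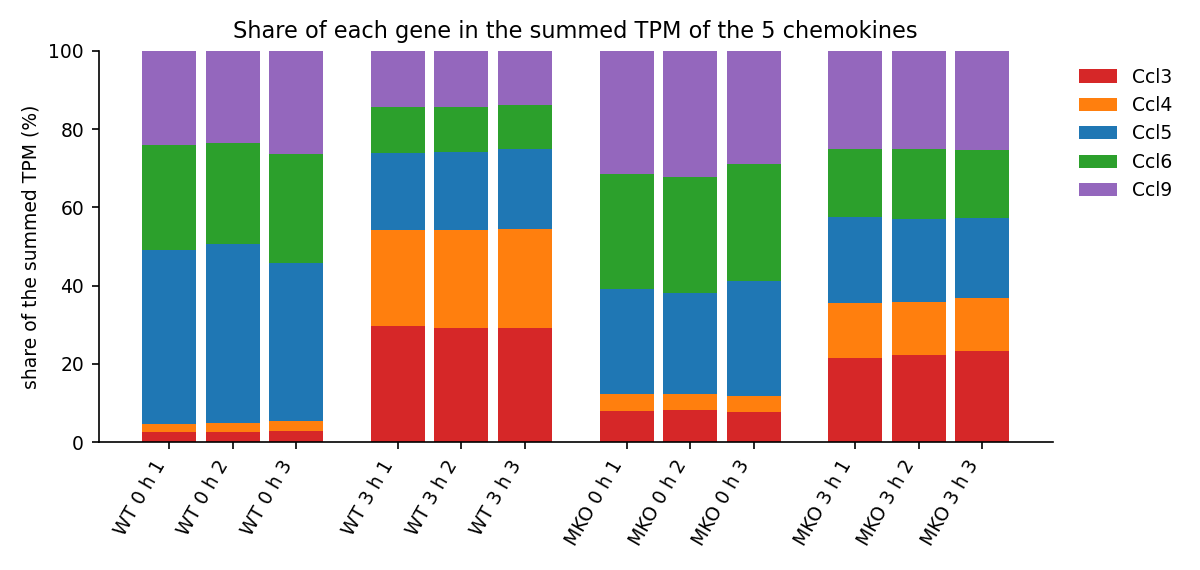
Share (%) of each gene in the summed TPM of the 5 chemokine genes, with 1 stacked bar per library. Ccl3 and Ccl4 fill 29.4% and 24.9% of the bars of WT 3 h and 22.3% and 13.7% of those of MKO 3 h.

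LPS raised Ccl3, Ccl4 and Ccl9 in WT macrophages, 3 of the 5 genes, where 32.5% of all genes tested were called, 17.8% as higher and 14.6% as lower. Ccl3, which encodes MIP-1alpha, stood at 57.3, 63.4 and 53.5 CPM before LPS and at 1723, 1686 and 1689 CPM after it. This was a rise of 29.3-fold (log2 fold change 4.87, SE 0.076, adjusted p = 1.4e-15). Ccl4, which encodes MIP-1beta, went from 40.3, 45.9 and 42.7 CPM to 1222, 1246 and 1263 CPM, 28.9-fold (4.85, SE 0.088, adjusted p = 4.9e-15). The pair thus rose by nearly the same factor, and ranked 45 and 47 from the highest log2 fold change of the genes tested. Ccl9, already abundant, went from 2113, 2176 and 2014 CPM to 3328, 3303 and 3204 CPM, 1.56-fold (0.64, SE 0.052, adjusted p = 1.8e-07). The gain in CPM, which is not corrected for gene length, was 1641 (SE 12.2) for Ccl3, 1201 (SE 12.1) for Ccl4 and 1177 (SE 60.6) for Ccl9. In deposited TPM the group mean of Ccl4 went from 181 to 4521 and that of Ccl9 from 1912 to 2583.

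Ccl5 and Ccl6 did not pass the test in WT. In WT 0 h Ccl5 was at 1224, 1337 and 975 CPM, and in WT 3 h at 1433, 1427 and 1495 CPM, a log2 fold change of 0.30 (SE 0.12, adjusted p = 0.071). Ccl6 was at 1379, 1414 and 1259 CPM and then at 1564, 1555 and 1519 CPM (0.19, SE 0.075, adjusted p = 0.06). In CPM all 3 h libraries were above all 0 h libraries for both genes, but in deposited TPM the ranges overlapped. Ccl5 was at 2993 to 3726 TPM in WT 0 h and 3567 to 3746 in WT 3 h, and Ccl6 at 2068 to 2108 and 2036 to 2085. Without replicate 3 of both 0 h groups both were called, Ccl5 at 0.17 (adjusted p = 0.0023) and Ccl6 at 0.14 (adjusted p = 0.00094). Scaling by library size alone put Ccl5 at 0.079 (adjusted p = 0.58) and Ccl6 at -0.029 (adjusted p = 0.74).

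In MKO macrophages LPS raised the same 3 genes, Ccl3, Ccl4 and Ccl9, where 15.8% of all genes tested were called, 9.75% as higher and 6.08% as lower. Ccl3 went from 133.5, 131 and 150.4 CPM in MKO 0 h to 568, 600.5 and 596 CPM in MKO 3 h, 4.25-fold (2.09, SE 0.067, adjusted p = 7.7e-12). Ccl4 went from 60.3, 55.0 and 70.3 CPM to 324, 311 and 300.3 CPM, 5.04-fold (2.33, SE 0.079, adjusted p = 1.5e-11). Both genes were apart between the times in every library. Ccl9 went from 2068, 2007 and 2280 CPM to 2640, 2678 and 2590 CPM, 1.24-fold (0.32, SE 0.052, adjusted p = 0.0006). Ccl5 (0.24, SE 0.12, adjusted p = 0.21) and Ccl6 (-0.16, SE 0.075, adjusted p = 0.18) were not called, with overlapping libraries. Without replicate 3 of both 0 h groups Ccl5 was called at 0.40 (adjusted p = 5.2e-07), and with scaling by library size alone Ccl6 was called at -0.25 (adjusted p = 0.019).

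**Figure D3:**
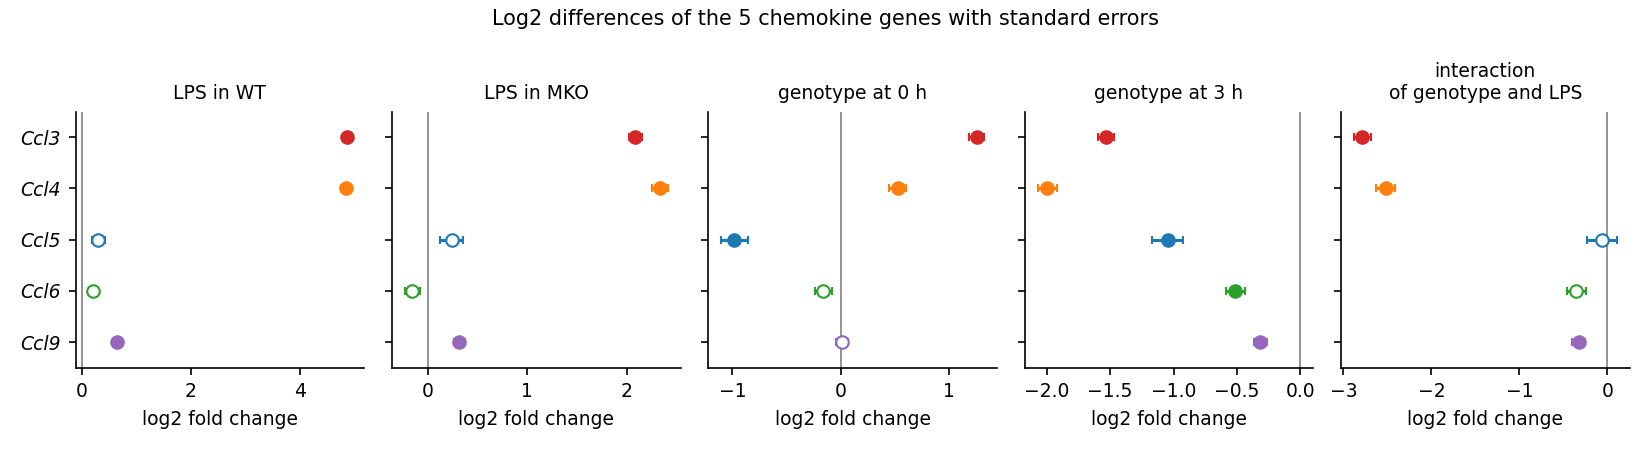
Log2 fold change (horizontal axis, a different range in each panel) of each gene in the 5 comparisons, with bars of 1 SE; filled points passed an adjusted p of 0.05 and open points did not. Ccl3 and Ccl4 pass in all panels, at 4.87 and 4.85 for LPS in WT and at -2.79 and -2.52 for the interaction.

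At 0 h the genotypes differed in 3 of the 5 genes, with Ccl3 and Ccl4 higher and Ccl5 lower in MKO. Of all genes tested, 32.9% were called in this comparison, 16.5% as higher and 16.4% as lower. Ccl3 was 2.38-fold higher in MKO 0 h than in WT 0 h (log2 difference 1.254, SE 0.068, adjusted p = 1.7e-08), with every MKO library, 131 CPM or more, above every WT library, 63.4 CPM or less. Ccl4 was 1.44-fold higher (0.53, SE 0.08, adjusted p = 0.00018), at 55.0 CPM or more against 45.9 or less. Ccl5 was at 558, 506 and 728 CPM in MKO 0 h against 1224, 1337 and 975 in WT 0 h, a log2 difference of -0.98 (SE 0.12, adjusted p = 3e-05). The library nearest to the other genotype was replicate 3 on both sides: for Ccl5 it lay 23.9% under the mean of replicates 1 and 2 in WT and 36.9% over it in MKO. Without both of these libraries the Ccl5 difference was -1.27.

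Ccl6 and Ccl9 were not called at 0 h. Ccl6 was at 1148, 1096 and 1384 CPM in MKO 0 h against 1379, 1414 and 1259 in WT 0 h (-0.16, SE 0.075, adjusted p = 0.12), and without replicate 3 of both groups it was called at -0.31 (adjusted p = 2.2e-07). Ccl9 had means of 2118 ± 143 and 2101 ± 81.9 CPM (0.01, SE 0.052, adjusted p = 0.89). Its value depended on scaling and on the libraries that stand apart: by library size alone it was called higher, at 0.13 (adjusted p = 0.033), and without replicate 3 of both groups it was called lower, at -0.071 (adjusted p = 0.049).

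After 3 h of LPS all 5 genes were lower in MKO, in a comparison that called 42.8% of all genes tested, 19.8% as higher and 23.0% as lower. No MKO 3 h library reached the lowest WT 3 h library for any of the 5 in CPM. How many of all genes tested separate in this way was not counted, here or in the other comparisons. Ccl4 was 3.99-fold lower (log2 difference -2.0, SE 0.076, adjusted p = 2e-10) and Ccl3 2.89-fold lower (-1.53, SE 0.065, adjusted p = 6.4e-10). Ccl5 was at 726, 721 and 663 CPM against 1433, 1427 and 1495, 2.06-fold lower (-1.05, SE 0.12, adjusted p = 1e-05), about as at 0 h. Ccl6 was at 1088, 1123 and 1040 CPM against 1564, 1555 and 1519, 1.43-fold lower (-0.51, SE 0.075, adjusted p = 8.6e-05). Ccl9 was 1.24-fold lower (-0.31, SE 0.052, adjusted p = 0.00024). This last call rested on scaling: by library size alone the Ccl9 difference was -0.064 (adjusted p = 0.23), and its deposited TPM overlapped, at 2532 to 2615 in WT 3 h and 2567 to 2616 in MKO 3 h. The other 4 genes were called lower under each scaling.

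The interaction asks whether the LPS response differed between the genotypes. Ccl3, Ccl4 and Ccl9 had a smaller response in MKO, 3 of the 5 genes, where 6.80% of all genes tested were called, 4.41% with a smaller log2 response in MKO and 2.39% with a larger one. The interaction was -2.79 for Ccl3 (SE 0.094, adjusted p = 6.2e-10) and -2.52 for Ccl4 (SE 0.11, adjusted p = 1e-08), the smallest and second smallest p of the 12455 genes tested. By the size of the difference they ranked 31 and 43 from the lowest. Both a higher level at 0 h and a lower level at 3 h enter these values: Ccl3 gained 449.5 CPM (SE 11.9) with LPS in MKO against 1641 in WT, and Ccl4 gained 250.04 (SE 8.26) against 1201. Ccl9 had an interaction of -0.33 (SE 0.073, adjusted p = 0.014), with a gain of 517 CPM (SE 86.6) in MKO against 1177 in WT. By library size alone it was -0.19 (adjusted p = 0.066).

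Ccl6 had an interaction of -0.35 (SE 0.11, adjusted p = 0.064), close to that of Ccl9 in size, and it was called with DESeq2 (adjusted p = 0.034) and without replicate 3 of both 0 h groups (-0.19, adjusted p = 0.0033). For Ccl5 it was -0.06 (SE 0.17, adjusted p = 0.9), an SE that leaves room for a difference in either direction. Without replicate 3 of both 0 h groups the Ccl5 interaction was called at 0.23 (adjusted p = 0.012), a larger log2 response in MKO, which the fit with all libraries did not show.

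**Figure D4:**
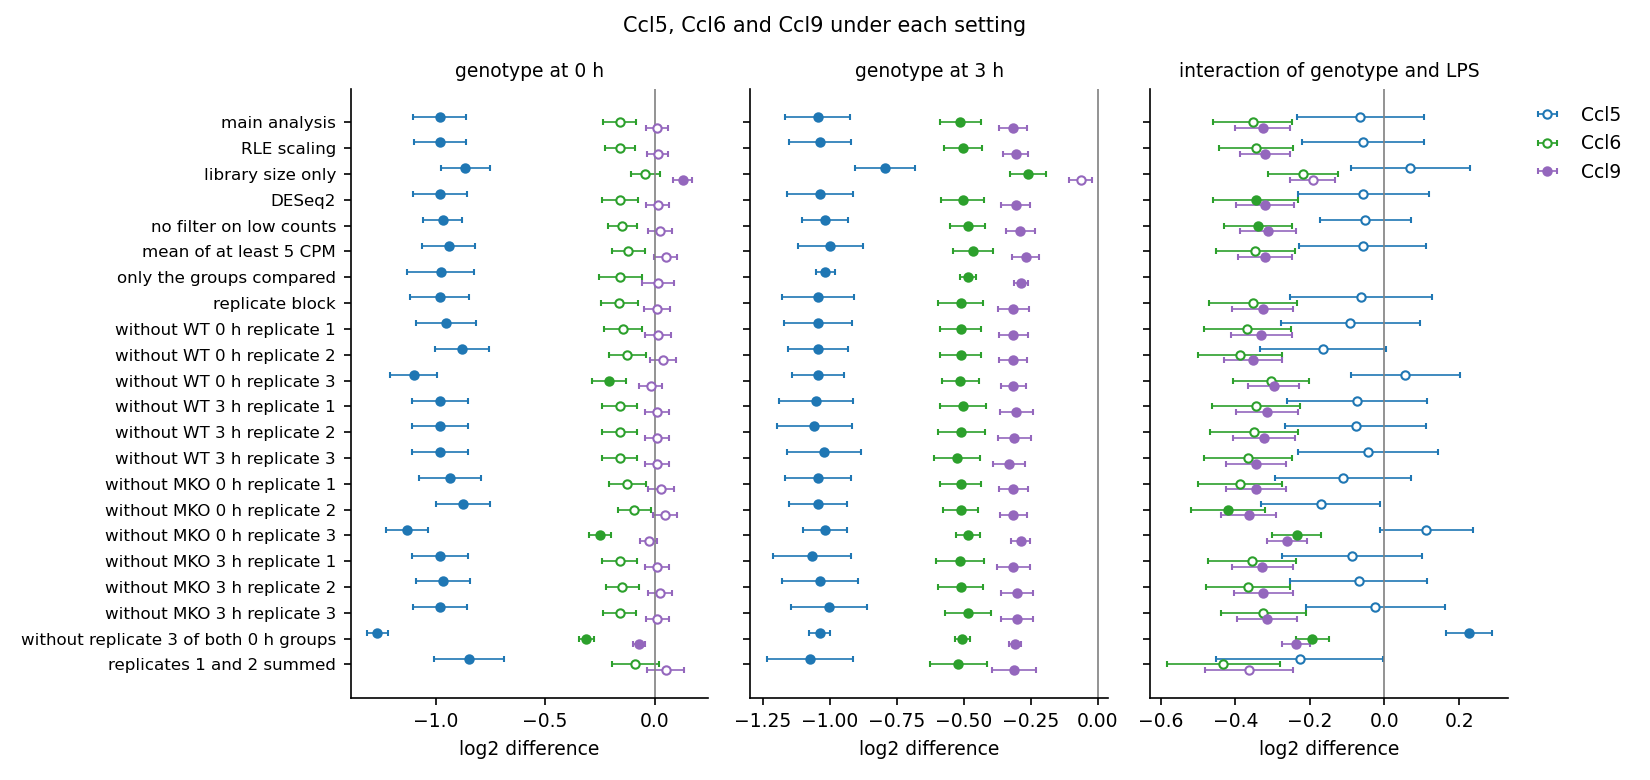
Log2 difference of Ccl5, Ccl6 and Ccl9 (horizontal axis, a different range in each panel) between genotypes and for the interaction, by setting of the analysis, with bars of 1 SE; filled points passed an adjusted p of 0.05. Ccl5 stays between -1.27 and -0.79 in the genotype panels, while its interaction runs from -0.23 to 0.23.

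Within the pair of Ccl3 and Ccl4 the proportion differed between the genotypes. The ratio of Ccl3 to Ccl4 in deposited TPM was 1.23, 1.19 and 1.08 in WT 0 h and 1.22, 1.17 and 1.15 in WT 3 h, so it was alike before and after LPS in WT. In MKO it was 1.91, 2.06 and 1.84 at 0 h and 1.51, 1.66 and 1.71 at 3 h. All 6 MKO libraries were above all 6 WT libraries, and the means were 1.94 ± 0.109 against 1.16 ± 0.0764 at 0 h and 1.63 ± 0.106 against 1.18 ± 0.0331 at 3 h. A ratio within a library does not depend on its scaling. The ratio of Ccl5 to Ccl9 was also parted by genotype, at 1.54 to 1.95 in WT 0 h against 0.800 to 1.013 in MKO 0 h and at 1.36 to 1.48 in WT 3 h against 0.813 to 0.872 in MKO 3 h. The ratio of Ccl6 to Ccl9 was lower at 3 h than at 0 h in both genotypes, at 0.800 ± 0.00376 against 1.09 ± 0.0256 in WT and at 0.698 ± 0.0151 against 0.966 ± 0.0556 in MKO, and was lower in each MKO group than in the WT group of the same time. The differences in these ratios were not tested.

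Across the 12 libraries the 5 genes fell into the patterns already seen in their levels. As a description over libraries that share the 4 groups, Pearson's r of log2(CPM + 1) was 0.987 for Ccl3 with Ccl4, 0.984 for Ccl4 with Ccl9, 0.956 for Ccl3 with Ccl9 and 0.882 for Ccl5 with Ccl6. It was 0.294 for Ccl3 with Ccl5 and 0.248 for Ccl3 with Ccl6. Physical neighbours were thus not always alike: Ccl6 and Ccl9, the closest neighbours on the chromosome, gave 0.475. Among 10784 genes that averaged 1 CPM or more and had an official-style name, those most like Ccl3 over the 12 libraries were Tnfsf4 (r = 0.997), Plk2 (0.996) and Ppp1r15a (0.996). Those most like Ccl4 were Stx11 (0.997), Ccl2 (0.997) and Mir22hg (0.997). For Ccl5 they were H2-K1, a class I histocompatibility gene (0.991), and the interferon-stimulated genes Isg20 (0.991) and Usp18 (0.989). For Ccl6 they were Dbi (0.981), Sugt1 (0.977) and Tpt1 (0.975), and for Ccl9 Il1f9 (0.994), Paf1 (0.994) and Il27 (0.993).

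Of 16 other CC chemokine genes 8 were tested, and 4 rose with LPS in each genotype while 5 were lower in MKO after LPS. Of all genes tested 17.8% and 9.75% were called higher with LPS in WT and MKO, and 23.0% lower in MKO at 3 h. Their median log2 fold change was 0.93 for LPS in WT and -1.09 for genotype at 3 h, against 0.00 and -0.01 over all genes tested. Ccl2, which encodes the monocyte attractant MCP-1, went from 209 to 1513 CPM in WT (2.85, SE 0.09) and from 229 to 652 CPM in MKO (1.51, SE 0.086). Ccl7, a further monocyte attractant gene, rose by 2.51 (SE 0.094) in WT and by 1.43 (SE 0.092) in MKO, and Ccl12 by 1.34 (SE 0.13) and 0.54 (SE 0.13). At 0 h Ccl7 (-0.30), Ccl8 (-0.72) and Ccl12 (-0.53) were lower in MKO, and Ccl2 was not called (0.13, SE 0.085, adjusted p = 0.27). Ccl7 lost this call by library size alone (-0.19, adjusted p = 0.093), with 2 of the genes then called lower and 2 higher. Ccl27a was the gene called higher at 0 h (1.03), at a mean of 1.248 CPM or less, and lost its call without replicate 3 of both groups. At 3 h Ccl2, Ccl7, Ccl8, Ccl12 and Ccl22 were lower by -1.21, -1.38, -1.27, -1.33 and -0.59, and Ccl22 lost its call with scaling by library size alone (-0.34, adjusted p = 0.087). The interaction was called for Ccl2 (-1.34), Ccl7 (-1.08) and Ccl12 (-0.80).

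**Figure D5:**
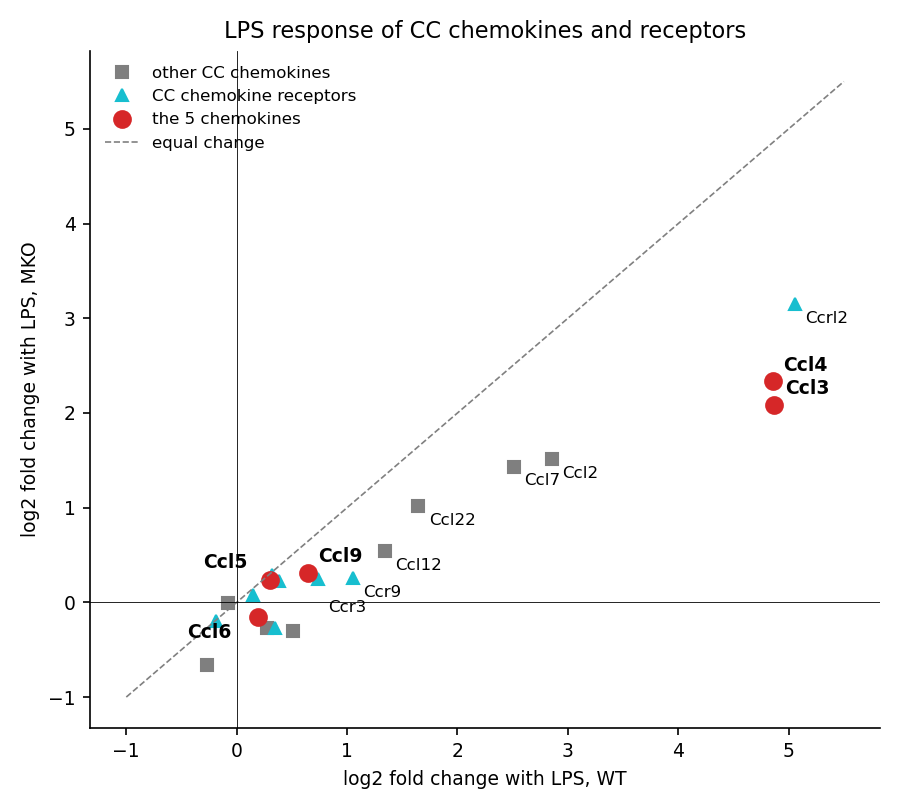
Log2 fold change with LPS in MKO (vertical axis) against that in WT (horizontal axis) for the 5 chemokine genes, the 8 other CC chemokine genes tested and the 8 CC chemokine receptor genes tested, with 1 point per gene and a dashed line of equal change. Ccl3 and Ccl4 lie far below the line, at 4.87 and 4.85 in WT against 2.09 and 2.33 in MKO.

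Of 15 CC chemokine receptor genes 8 were tested, and 7 were lower in MKO after LPS while none was higher, against 23.0% and 19.8% of all genes tested. Without replicate 3 of both 0 h groups all 8 were lower, and by library size alone 6. Ccr1, which encodes a receptor of CCL3, CCL5, CCL6 and CCL9, was lower by -0.30 (SE 0.055) at 0 h and -0.46 (SE 0.055) at 3 h, and Ccr3, which encodes a receptor of CCL5, by -0.96 (SE 0.1) and -1.44 (SE 0.1). At 0 h 4 receptor genes were lower and 1 was higher, against 16.4% and 16.5% of all genes tested. That gene was Ccrl2, which encodes an atypical receptor that does not signal like the others; at 0 h its mean was 34.3 CPM in MKO and 27.1 CPM in WT (0.34, SE 0.096, adjusted p = 0.014). Without replicate 3 of both 0 h groups the call was lost (0.19, adjusted p = 0.068). Ccrl2 rose by 5.06 (SE 0.1) with LPS in WT to 903 CPM and by 3.15 (SE 0.094) in MKO to 305 CPM. Its interaction of -1.91 (SE 0.13) was the 1 called among the receptors, against 2 called without replicate 3 of both 0 h groups.

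Transcription factors and decay factors that act on such genes are given for comparison. Of 13 NF-kB and interferon regulatory factor genes 9 rose with LPS in WT and 8 in MKO, with 0 and 1 lower, against 17.8% and 9.75% of all genes tested called higher. In MKO 11 rose without replicate 3 of both 0 h groups, and in WT 8 rose and 2 fell by library size alone. Of all genes, 1614 were called higher in the former setting, and 1208 of the 6417 called in the latter. At 3 h 12 were lower in MKO and none was higher, against 23.0% and 19.8% of all genes tested. By library size alone 7 were lower and 1 was higher. Rel rose by 2.89 (SE 0.12) in WT and 1.89 (SE 0.12) in MKO, and Irf1 by 1.76 (SE 0.059) and 0.96 (SE 0.057). At 0 h 6 of the 13 were lower in MKO and 3 higher, against 16.4% and 16.5% of all genes tested. By library size alone 4 were lower and 4 higher. Those higher with all libraries were Irf4 (1.07, SE 0.14), Nfkb1 (0.31, SE 0.10) and Irf1 (0.18, SE 0.057). Irf1 lost this call without replicate 3 of both 0 h groups (0.096, adjusted p = 0.057). Irf7, which drives interferon genes, was lower in MKO by -0.79 (SE 0.073) at 0 h and -0.81 (SE 0.073) at 3 h, without a called change by LPS in WT (0.06, adjusted p = 0.62). The interaction was called for 6 of the 13, namely Rel (-1.01), Irf1 (-0.81), Nfkb2 (-0.62), Irf4 (-1.56), Nfkb1 (-0.81) and Rela (-0.46), against 4.41% of all genes tested called with a smaller response in MKO. Rela lost its call by library size alone (-0.33, adjusted p = 0.086). Of 10 genes for decay of messages through AU-rich elements or stem loops, 7 rose with LPS in WT (4 by library size alone) and 6 in MKO, against 17.8% and 9.75% of all genes tested. None was called between the genotypes at 0 h, though 6 were called higher in MKO without replicate 3 of both groups and 2 with library size alone. Of all genes, 3080 and 3219 were called higher in these settings. Zfp36, which encodes the ATTTA-binding protein tristetraprolin, went from 221 to 2899 CPM in WT (3.71, SE 0.063) and from 232 to 1479 in MKO (2.67, SE 0.061), with an interaction of -1.04 (SE 0.081, adjusted p = 1.5e-06). At 3 h 5 of the decay genes were lower in MKO and 1 higher, against 3 lower and 5 higher by library size alone and 5 lower and 3 higher without replicate 3 of both 0 h groups. The interaction was called for 2 of the 10, Zfp36 and Zfp36l1 (-0.71), but for 7 without replicate 3 of both 0 h groups, with a median of -0.43 over the 10 there against -0.14 with all libraries. Of all genes, 2535 were called in the interaction without these libraries and 847 with them.

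Of the 5 proteoglycan and Cd44 genes, whose products present chemokines or take them up into secretory granules, 4 rose with LPS in each genotype, against 17.8% and 9.75% of all genes tested in WT and MKO. The smallest of these rises was that of Sdc1 (syndecan-1), by 0.18 in WT (adjusted p = 0.046) and by 0.26 in MKO (adjusted p = 0.0098). It lost its WT call with RLE scaling (0.18, adjusted p = 0.06) and by library size alone (-0.047, adjusted p = 0.6), and its MKO call by library size alone (0.17, adjusted p = 0.092), which left 3 genes in each of these cases. Sdc4 (syndecan-4) went from 153 to 1276 CPM in WT (3.06, SE 0.048) and from 158 to 516 in MKO (1.70, SE 0.046), with an interaction of -1.36 (SE 0.063). Srgn, which encodes the granule proteoglycan serglycin, rose by 1.34 (SE 0.09) and 0.41 (SE 0.089). At 0 h 2 of the 5 were higher in MKO and 1 was lower, against 16.5% and 16.4% of all genes tested. By library size alone 4 were higher and 0 lower, and without replicate 3 of both 0 h groups 3 and 1. At 3 h 4 were lower in MKO and 1 was higher, namely Sdc1, at 0.89 (SE 0.063). Sdc1 was already higher in MKO at 0 h, by 0.81 (SE 0.064), and its interaction was not called (0.08, adjusted p = 0.71). By library size alone 2 of the 4, Srgn and Sdc4, remained called lower.

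Within 500 kb on either side of the 5 genes the table held 45 other genes, of which 21 were tested. At 0 h 10 of them were lower in MKO and none higher, and at 3 h 12 were lower and none higher, against 16.4% and 23.0% of all genes tested called lower. By library size alone 7 were lower at 0 h, and at 3 h 8 were lower and 2 higher. At 0 h 9 were lower and 2 higher without replicate 3 of both groups. Of all genes 4414 were called at 0 h by library size alone, 3219 of them higher, and 6034 without these libraries, 3080 of them higher. Several of the neighbours are schlafen genes, interferon-inducible regulators of cell growth. Slfn4 was at 495 CPM in WT 0 h against 171.5 in MKO 0 h (-1.53) and at 595.5 against 202 at 3 h (-1.56), and Slfn1 was lower by -1.08 and -1.11. Slfn3 was lower by -0.47 and -0.40, and Slfn10-ps was not called at either time (-0.21 and -0.29). Genes of other kinds also differed at 3 h, by less than Slfn4. AI662270 (-0.60, 134 CPM in WT and 88.1 in MKO), Wfdc17 (-0.51, 162 and 114) and Taf15 (-0.44, 70.4 and 51.9) were lower in MKO. Wfdc17 lost its call by library size alone (-0.26, adjusted p = 0.066). Others were at low levels. Among them were Dusp14 (-1.34, 2.29 CPM in WT and 0.897 in MKO), Heatr9 (-1.15, 2.28 and 1.04) and Gm11427 (-1.07, 9.57 and 4.60). Slfn2 rose with LPS by 0.92 (SE 0.058) in WT and by 0.56 (SE 0.058) in MKO. With LPS 7 of the 21 rose and 1 fell in WT, and 1 rose and 1 fell in MKO. Of all genes tested 17.8% rose and 14.6% fell in WT, and 9.75% and 6.08% in MKO. By library size alone 3 rose and 6 fell in WT and 1 rose and 3 fell in MKO. Of all genes that setting called 6417 in WT, 1208 of them higher, and 2595 in MKO, 837 of them higher. Without replicate 3 of both 0 h groups 9 rose and 3 fell in WT and 4 rose and 2 fell in MKO. Of all genes 5841 were then called in WT, 3115 of them higher, and 2609 in MKO, 1614 of them higher. Of the 21, Dusp14, which encodes a phosphatase, had the highest log2 fold change with LPS in WT, at 3.76 (SE 0.48), from 0.158 to 2.29 CPM.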

How the data were processed

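Libraries were made by a standard Illumina protocol from total RNA, per the labels' protocols, and read as pairs, per the file headers. The submitters' processing notes name fastp and mm10. Which aligner, counter, annotation release and strand setting were used is not given in the sources used here. The authors deposited 1 table of 48709 genes with raw counts per gene and library and, beside them, TPM values, per the file headers. Tests used the counts, and comparisons between genes the TPM. Columns were matched to samples by title.

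A quasi-likelihood model was fitted to the counts with edgeR 4.0.16 (R 4.3.3), with 4 group means, TMM scaling and filterByExpr, over all 12 libraries. Of 19195 genes with any count 12455 were tested, with Benjamini-Hochberg adjustment over them, and the 5 comparisons were LPS in each genotype, genotype at each time and their interaction. CPM used TMM-scaled library sizes, so that 1 count was worth 0.0469 to 0.0647 CPM. The steps were tested on simulated data with known changes. As alternatives, DESeq2 1.42.0, scaling by RLE or by library size alone, no filter, a minimum mean of 5 CPM, a fit to the compared groups alone, a replicate block, each library left out in turn, both replicates 3 at 0 h left out, and replicates 1 and 2 summed were run.

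The genes, the gene lists and the alternatives were chosen with earlier results of these data known. Named besides the 5 genes and Usp5 are, by rule, the 3 genes most correlated with each, and from each list and from the genes within 500 kb those with the smallest p, at most 4 per comparison; other list members named with a count were chosen after their values were seen. Promoter windows came from RefSeq (GRCm38.p6) and 3′ UTRs from GENCODE M21 on the same build. The macrophage marker Itgam was not matched by symbol and is not used here. Results for 1 gene of the lists are not reported here beyond its part in the counts.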

Additional observations from a re-analysis of the deposited data

Results flagged for a closer look

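The LPS response differed between the genotypes by the interaction test, over all genes tested, for the following genes, each given as the log2 response in MKO minus that in WT (edgeR's quasi-likelihood test). Among the 5 chemokine genes these were Ccl3 (-2.79), Ccl4 (-2.52) and Ccl9 (-0.33). Among the other CC chemokine and receptor genes they were Ccl2 (-1.34), Ccl7 (-1.08), Ccl12 (-0.80) and Ccrl2 (-1.91). Among transcription factor genes they were Nfkb2 (-0.62), Rel (-1.01), Irf1 (-0.81), Irf4 (-1.56), Nfkb1 (-0.81) and Rela (-0.46), and among mRNA decay genes Zfp36 (-1.04) and Zfp36l1 (-0.71). Srgn (-0.93), Sdc4 (-1.36) and Cd44 (-0.47) were called among the genes for proteoglycans and CD44, and Slfn2 (-0.37) and Dusp14 (-2.78) among the chromosomal neighbours. Dusp14 was at 0.158 (WT) and 0.455 (MKO) CPM at 0 h, so few reads stand behind its value. Without replicate 3 of both 0 h groups, 7 of the 10 mRNA decay genes, 4 of the 5 proteoglycan and Cd44 genes and 4 of the 21 neighbours were called with a smaller response in MKO, and 2 neighbours with a larger one. That setting called 2535 genes of any kind in the interaction, against 847 with all libraries.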

How the results depend on the processing

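Ccl3 and Ccl4 kept their direction and their call in all 5 comparisons under every alternative run, with interactions of -2.85 to -2.65 and -2.60 to -2.39. Of 520 alternative values for the 5 genes, 484 kept direction and call, 24 gained a call, 4 lost it and 8 turned in direction. Scaling by library size alone called 6417 genes for LPS in WT, turned Ccl6 to -0.029 there and Ccl5 to 0.069 in the interaction, and ended the call of Ccl9 at 3 h (-0.064). With each library left out in turn, Ccl9 at 0 h ran from -0.027 to 0.050 and the Ccl5 interaction from -0.17 to 0.11, below 0 and above 0, respectively, without replicate 3 of either 0 h group. Without both of these libraries Ccl9 was at -0.071 and the Ccl5 interaction at 0.23. Without both, 2535 genes were called in the interaction, and all 5 chemokine genes were called for LPS in WT, for genotype at 0 h and in the interaction. All 5 were also called for LPS in WT with no filter and with only the groups compared, which called 2698 genes for genotype at 0 h. Summing replicates 1 and 2 called 2585, 945, 2156, 3434 and 294 genes in the 5 comparisons, and Ccl9 lost its call for LPS in MKO (adjusted p = 0.073, range over alternatives 5.1e-10 to 0.073) and in the interaction (0.21, range 6.7e-05 to 0.21). Leaving out each library in turn, 3340 to 4800, 1335 to 2320, 3119 to 4792, 4402 to 6070 and 603 to 1132 genes were called, and 3 to 5, 3 to 4, 3 to 4, 5 and 3 to 4 of the 5 chemokine genes; 5 were reached for LPS in WT without replicate 2 or 3 of MKO 0 h. With CPM in place of TPM, 2, 5 and 2 of the 5 genes changed rank in WT 0 h, WT 3 h and MKO 3 h, and 0 in MKO 0 h.

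The replicate numbers do not pair the samples by the data: deviations of same-numbered libraries correlated at -0.461 to 0.129. A fit with the replicate block called 3710, 1616, 3703, 4936 and 672 genes in the 5 comparisons and changed no call of the 5 chemokine genes, with interactions of -2.79 for Ccl3 and -2.52 for Ccl4. Depth was not the limit for these genes, with 623 counts or more in every library. The causes of these changes were not tested.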
